A study of Mus musculus with 8 samples.

Results

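The genes described here encode 2 linked brakes on inflammatory signalling: the ubiquitin editor A20 with its partners, and the proteins that destroy cytokine mRNA. They were 10 rows of the deposited gene count table named Tnfaip3, Tnip1, Tnip2, Tnip3, Cyld, Zc3h12a, Zc3h12c, Zfp36, Zfp36l1 and Zfp36l2, among 31053 genes in all. All 10 passed the filter on low counts that left 11702 genes to test. The samples were conventional dendritic cells (cDCs) of mouse spleen. Splenocytes partly enriched for dendritic cells were stimulated for 9 h with CpG-B DNA at 100 nM, which activates Toll-like receptor 9 (TLR9). Cells lacking lineage markers and carrying CD11c and MHC class II were sorted, and their polyA RNA was sequenced. The wild-type (WT) group held 4 libraries (D142, D150, D154, D164), and so did the group labelled CKO (D146, D149, D163, D169). The labels do not say which gene is deleted or by which Cre, nor the strain and age of the mice, so the deletion was not checked. They also do not say that each library came from a separate animal, and the p-values therefore reflect only how these samples vary, which may be partly technical. No unstimulated library was analysed here, so the groups differ in genotype and not in stimulation.

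A20, encoded by Tnfaip3, trims and rebuilds the ubiquitin chains that carry signals from Toll-like and TNF receptors to NF-κB. The ABIN proteins, encoded by Tnip1, Tnip2 and Tnip3, bind ubiquitin chains and bring A20 to them, and CYLD is a separate deubiquitinase that acts on the same signalling complexes. The Regnase proteins (Zc3h12a encodes Regnase-1, Zc3h12c Regnase-3) are endonucleases that cut cytokine mRNAs at stem-loops. Tristetraprolin (Zfp36) and its relatives (Zfp36l1, Zfp36l2) bind AU-rich elements and recruit the CCR4-NOT deadenylase. In dendritic cells and macrophages several of these genes are themselves induced by NF-κB, which makes them negative feedback.

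Library totals ran from 25304765 to 40950088 counts assigned to genes. The first principal component of log2 CPM held 36.0% of the variance and placed all WT libraries on one side and all CKO libraries on the other. The second, with 19.0%, set CKO D149 apart from the other 7. The 6 markers fixed for cDCs were all detected. Levels are in CPM, which are counts scaled to library size with the trimmed mean of M-values (TMM). Neutrophil markers were at or near 0, with 2 of 4 at 0 counts in all libraries. None of the 8 B cell markers was at 0 in all libraries and 5 had a mean of at least 1 CPM. Their sum was 16.2 to 40.8 CPM in WT, and 76.7, 21.3, 104 and 89.5 CPM in CKO D146, D149, D163 and D169. Of these, Ms4a1 passed the test, higher in CKO. Among the other marker lists, 2 of 6 T cell, 1 of 4 plasmacytoid dendritic cell, 1 of 4 erythroid and 1 of the 6 cDC markers also passed. The cDC sum was 26037 to 33203 CPM in WT and 18668 to 28175 CPM in CKO, and the plasmacytoid dendritic cell sum 667 to 989.6 and 457 to 708 CPM. The NK cell sum was 112 to 193 CPM in WT and 87.0 to 228 CPM in CKO. For plasma cell markers it was 277 to 323 and 269 to 328 CPM, and for erythroid markers 50.8 to 168 and 5.21 to 73.2 CPM. The sum for the cDC1 subset was 3244 to 3871 and 2637 to 3706 CPM, and for cDC2 155 to 293 and 219 to 347 CPM. Only 2 of the 5 cDC1 markers and 3 of the 4 cDC2 markers had a mean of at least 1 CPM. These sums therefore rest on few genes and do not give the proportion of the subsets. The part of any of these cell types in the results below was not tested.

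Sequences in these genes that bear on their known feedback are shown first. Zfp36, Zfp36l1 and Zfp36l2 each held 1 copy of TTATTTATT, the nonamer core of the AU-rich element that tristetraprolin recognises, in the 3' untranslated region of the principal GENCODE M21 transcript. Across the genes tested with such a region, 7.52% held at least 1 nonamer. Among genes whose region was 0.8 to 1.25 times as long, the share was 4.58% for Zfp36, 8.96% for Zfp36l1 and 8.77% for Zfp36l2. The sites are given 5' to 3' on the coding strand in GRCm38 (mm10), with the nonamer in capitals. They lie on the minus strand at chr7:28376951-28376979 (Zfp36), chr12:80108167-80108195 (Zfp36l1) and chr17:84184914-84184942 (Zfp36l2).
Zfp36: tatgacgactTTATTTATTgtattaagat
Zfp36l1: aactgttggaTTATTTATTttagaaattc
Zfp36l2: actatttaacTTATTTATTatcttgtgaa

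RefSeq promoters of GRCm38.p6, from 250 bases before to 50 bases after each start site, were at hand for all of the genes but Zfp36l2, 11 promoters in all. The κB consensus motif (10 letters), searched on both strands, was found in 4 of the 11, those of Tnip1, Tnip3, Cyld and 1 of the 2 of Tnfaip3, against 4.51% of 32851 mouse promoters. The AP-1 motif TGANTCA was found in 2 of 11, in Tnfaip3 and Zfp36l1, against 7.81%. The promoters of the 3 genes that passed the test below, and that of Tnfaip3, are shown with matches to the κB consensus in capitals. A match is a match of letters and not a measured binding site. The 4 Tnip1 matches overlap one another and begin at -58, at -57 on both strands, and at -56 from the start site. The matches of Tnfaip3 begin at -125 and -12, and that of Cyld at -155. The Zc3h12a window held no match. The windows are chr11:54962891-54963190 on the minus strand (Tnip1), chr4:125127832-125128131 on the minus strand (Zc3h12a), chr8:88696778-88697077 on the plus strand (Cyld) and chr10:19015361-19015660 on the minus strand (Tnfaip3).
Tnip1: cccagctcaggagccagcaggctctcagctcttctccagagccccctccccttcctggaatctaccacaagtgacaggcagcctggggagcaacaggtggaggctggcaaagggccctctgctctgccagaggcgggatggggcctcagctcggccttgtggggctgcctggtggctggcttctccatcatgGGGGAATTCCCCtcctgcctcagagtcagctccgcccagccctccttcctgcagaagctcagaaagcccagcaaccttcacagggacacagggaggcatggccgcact
Zc3h12a: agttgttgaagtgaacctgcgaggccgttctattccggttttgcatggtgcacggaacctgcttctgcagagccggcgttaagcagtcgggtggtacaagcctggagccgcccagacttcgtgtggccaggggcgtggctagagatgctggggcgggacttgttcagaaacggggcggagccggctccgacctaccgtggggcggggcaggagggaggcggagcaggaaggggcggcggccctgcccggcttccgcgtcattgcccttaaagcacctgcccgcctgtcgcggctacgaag
Cyld: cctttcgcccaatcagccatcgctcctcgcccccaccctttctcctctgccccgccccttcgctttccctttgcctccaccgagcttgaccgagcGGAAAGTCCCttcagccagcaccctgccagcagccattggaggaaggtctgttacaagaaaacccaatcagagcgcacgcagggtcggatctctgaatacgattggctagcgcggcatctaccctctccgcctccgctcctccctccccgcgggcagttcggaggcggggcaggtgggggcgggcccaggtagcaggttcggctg
Tnfaip3: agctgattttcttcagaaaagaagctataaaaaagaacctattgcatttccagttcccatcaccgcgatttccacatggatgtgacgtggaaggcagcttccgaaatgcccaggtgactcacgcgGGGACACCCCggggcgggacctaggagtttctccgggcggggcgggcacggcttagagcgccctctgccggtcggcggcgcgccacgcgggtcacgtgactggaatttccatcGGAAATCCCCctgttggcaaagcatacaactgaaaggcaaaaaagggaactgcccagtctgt

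Tnip1 and Zc3h12a fell in CKO and Cyld rose, and the other 7 of the 10 genes did not pass. The test was the quasi-likelihood F test of edgeR, with p-values adjusted by Benjamini-Hochberg over all genes tested and a threshold of 0.05. So 3 of 10 were called, where the same test called 8.87% of all 11702 genes, 4.57% lower and 4.30% higher. The 10 genes and the lists below were chosen with earlier results of these data known. Their shares beside those of all genes are therefore descriptive only. The libraries of the genotypes did not overlap for 5 of the 10 genes, 4 lower and 1 higher in CKO, against 16.0% of all genes tested (8.12% lower and 7.84% higher). The median log2 fold change of the 10 was -0.38, beside 0.03 for all genes tested. Leaving out a library moved the count between 0, without WT D150 or without CKO D163, and 5, without CKO D146. It was 2 without WT D142, WT D154, CKO D149 or CKO D169. The calls over all genes moved in the same fits, from 1038 to 82 without WT D150, 70 without CKO D163, 138 without WT D154, 347 without WT D142 and 457 without CKO D169, and to 1310 without CKO D146, 1327 without CKO D149 and 1468 without WT D164. DESeq2, which called 17.5% of the genes it adjusted, called 6 of the 10, and a fit with the B cell markers as a covariate, which called 1.71%, called 1, Tnip1. The count stayed at 3 with RLE scaling (9.08% of all genes called), upper quartile scaling (9.58%), total-count scaling (11.9%), no low-count filter (5.39%), a mean of at least 5 CPM (12.7%) and limma-voom (10.1%). It was 2 with each library's trend in GC content and gene length removed (9.21%), since Cyld then missed the threshold.

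**Figure D1:**
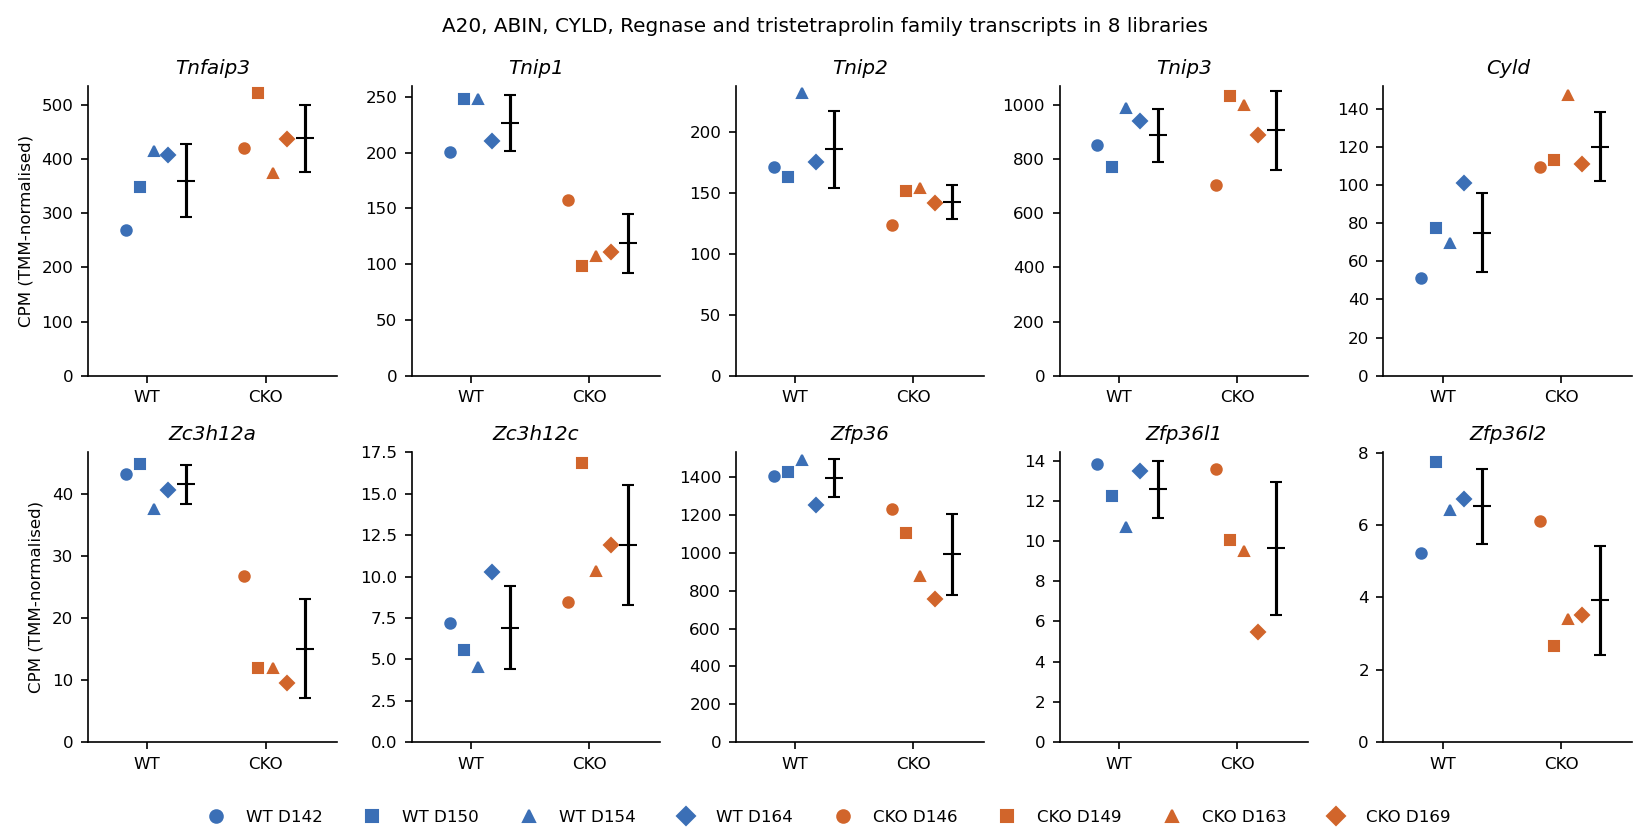
TMM-normalised CPM of the 10 genes (y axis, linear from 0) in each WT and CKO library (x axis), with 1 marker shape per library and the mean ± SD of 4 libraries at the right of each group. The groups are separate for Tnip1, Tnip2, Zc3h12a and Zfp36, lower in CKO, and for Cyld, higher in CKO, and CKO D146 is the CKO library nearest to the WT mean for Tnip1, Cyld, Zc3h12a, Zc3h12c, Zfp36, Zfp36l1 and Zfp36l2.

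Tnip1 encodes ABIN-1, the adaptor that holds A20 at ubiquitin chains (chr11:54910785-54962917). Its level was 201, 248, 248 and 210.1 CPM in WT D142, D150, D154 and D164, and 157, 98.5, 108 and 111 CPM in CKO D146, D149, D163 and D169. Every CKO library lay below every WT library, and CKO D146 was the highest of the CKO libraries. The means were 227 ± 24.9 CPM in WT and 119 ± 26.3 CPM in CKO (SD, n = 4), a log2 fold change of -0.93 ± 0.16 (SE) or 1.91-fold lower (edgeR adjusted p = 0.0124). In a bulk sample, fewer cells that express a gene and less RNA per cell cannot be told apart. Tnip1 ranked 68 of 11702 genes by p. Without CKO D146 the change was -1.10 (edgeR adjusted p = 0.00118), and without CKO D149 it was -0.86 (0.0205). It missed the threshold without WT D150 (-0.89 ± 0.18, edgeR adjusted p = 0.0526) and without CKO D163 (-0.87 ± 0.17, 0.0510).

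The other ABIN genes did not pass. Tnip2, which encodes ABIN-2, a partner of A20 and of the kinase TPL2 (chr5:34496087-34513991), had 171, 163.1, 232 and 175 CPM in the WT libraries and 123, 151, 153.7 and 141 CPM in the CKO libraries, in the same order. All CKO libraries lay below all WT libraries, by a small margin. The log2 fold change was -0.38 ± 0.14 (SE), with an edgeR adjusted p = 0.0967, and no fit in the alternatives called it. Tnip3, which encodes ABIN-3 (chr6:65525313-65634040), was the most abundant ABIN transcript by TPM, a level per unit of length given below, and had overlapping groups, 770 to 989 CPM in WT and 706 to 1032 CPM in CKO. Its log2 fold change was 0.03 ± 0.15 (SE; edgeR adjusted p = 0.919), and it was -0.33 ± 0.14 (edgeR adjusted p = 0.145) once each library's trend in GC content and gene length was removed.

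Tnfaip3, which encodes A20 itself (chr10:19000910-19015657), did not pass. It measured 269, 349, 415 and 407 CPM in the WT libraries, and 421, 522, 374 and 437 CPM in the CKO libraries. The groups overlapped, with CKO D163 below the 2 highest WT libraries and CKO D149 the highest of all. The log2 fold change was 0.28 ± 0.16 (SE; edgeR adjusted p = 0.260). It lay between 0.11 and 0.47 over the 17 alternative fits, none of which called it (lowest adjusted p = 0.0700).

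Cyld encodes the deubiquitinase CYLD (chr8:88697028-88751945). It rose from 51.5, 77.4, 69.9 and 101 CPM in WT to 109, 113, 147 and 111 CPM in CKO. No library overlapped, although WT D164 lay close to the lowest CKO library, and CKO D163 stood above the other 3 CKO libraries. The means were 75.0 ± 20.6 and 120.2 ± 18.03 CPM (SD, n = 4), and the log2 fold change was 0.68 ± 0.19 (SE), or 1.603-fold higher, with an edgeR adjusted p = 0.0454. This call was near the threshold. It was lost with the GC content and length trend removed (log2 fold change 0.35 ± 0.14, edgeR adjusted p = 0.127), with the B cell marker covariate (0.75 ± 0.26, 0.143), and without any 1 of WT D142, WT D150, WT D154, CKO D149, CKO D163 or CKO D169 (log2 fold changes of 0.54 to 0.72, largest edgeR adjusted p = 0.141).

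Zc3h12a showed the largest change of the 10 genes. It encodes Regnase-1, which cuts Il6, Il12b and other inflammatory transcripts and its own mRNA (chr4:125118423-125127840). The values were 43.2, 44.8, 37.5 and 40.6 CPM in WT D142, D150, D154 and D164, and 26.8, 11.9, 12.0 and 9.49 CPM in CKO D146, D149, D163 and D169. WT libraries lay close together, and CKO D146 was higher than the other CKO libraries yet below every WT library. The means were 41.5 ± 3.19 and 15.0 ± 7.95 CPM (SD, n = 4), a log2 fold change of -1.46 ± 0.28 (SE) or 2.75-fold lower (edgeR adjusted p = 0.0171). Without CKO D146 the change was -1.90 ± 0.15 (edgeR adjusted p = 0.000201), and without CKO D149 it was -1.36 ± 0.31 (0.0279). It missed the threshold without WT D150 (-1.42 ± 0.31, edgeR adjusted p = 0.0612) or CKO D163 (-1.35 ± 0.30, 0.0613) and with the B cell marker covariate (-1.58 ± 0.42, 0.0761).

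Its relative Zc3h12c, which encodes Regnase-3 (chr9:52111344-52168572), was higher in CKO on average but did not pass. It stood at 7.17, 5.59, 4.55 and 10.3 CPM in WT and 8.44, 16.9, 10.4 and 11.9 CPM in CKO, with WT D164 and CKO D146 in the range of the other group. The log2 fold change was 0.79 ± 0.28 (SE; edgeR adjusted p = 0.0945). Without WT D164 it was 1.07 ± 0.27 and passed (edgeR adjusted p = 0.0291). DESeq2 also called it, at an adjusted p of 0.0470.

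Zfp36, which encodes tristetraprolin (chr7:28376784-28380253), was the most abundant of the 10 by TPM. It stood at 1404, 1426, 1492 and 1253 CPM in WT and 1229, 1105, 877 and 758 CPM in CKO. All CKO libraries lay below all WT libraries, CKO D146 only just below WT D164. The log2 fold change was -0.49 ± 0.16 (SE) and missed the threshold (edgeR adjusted p = 0.0730). It passed without CKO D146 (-0.61 ± 0.15, edgeR adjusted p = 0.0324) and in DESeq2 (-0.51 ± 0.17, adjusted p = 0.0232).

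The paralogs Zfp36l1 and Zfp36l2 encode proteins that also bind AU-rich elements, and both were scarce in these cells. Zfp36l1 (chr12:80107754-80113013) stood at 10.7 to 13.8 CPM in WT and 5.49 to 13.6 CPM in CKO (log2 fold change -0.38 ± 0.24, SE; edgeR adjusted p = 0.320). Zfp36l2 (chr17:84183931-84187947) stood at 5.22 to 7.75 CPM in WT against 6.12, 2.64, 3.40 and 3.52 CPM in CKO D146, D149, D163 and D169. Its log2 fold change was -0.73 ± 0.26 (SE) and did not pass (edgeR adjusted p = 0.0981), and without CKO D146, the only CKO library within the WT range, it was -1.03 ± 0.23 (0.0195). The log2 fold changes of all 3 tristetraprolin genes were negative in every alternative fit. Exons of Zfp36, Zfp36l1 and Zfp36l2 each overlap a non-coding gene on the opposite strand (Gm44710, Gm26669 and AC132455.1), and those of Zc3h12c overlap Mir6244. The strand setting of the counts is not given, so these 4 counts are less certain.

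**Figure D2:**
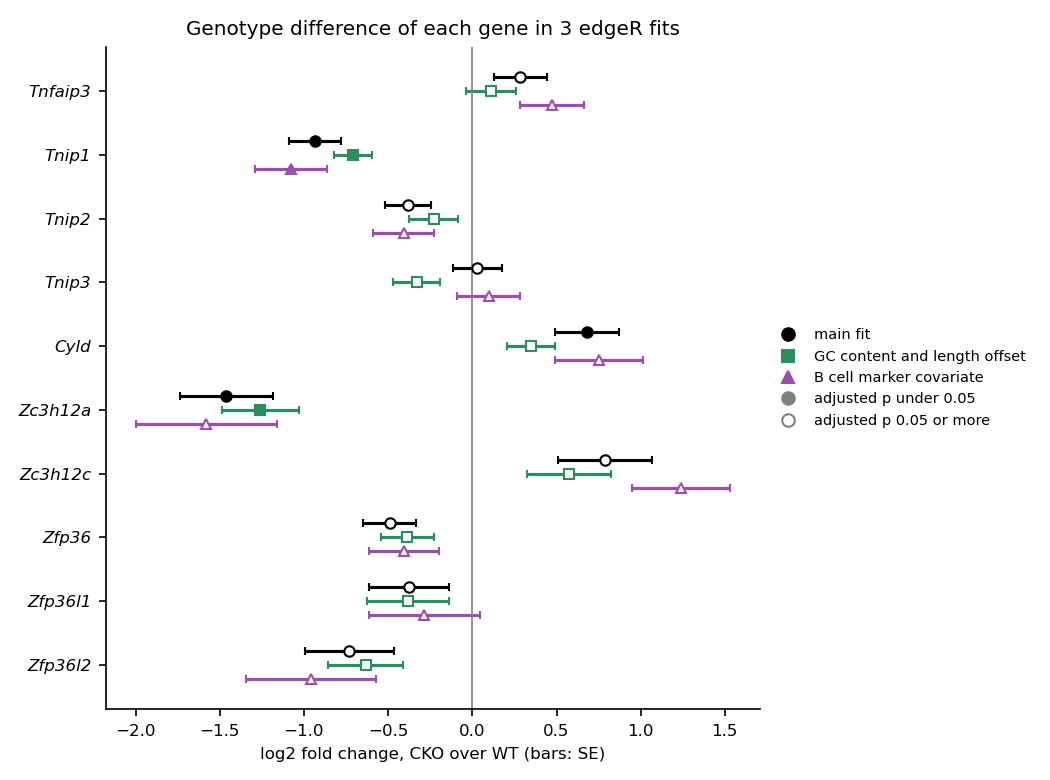
Log2 fold change of CKO over WT (x axis, bars are SE) for each gene (y axis) in the edgeR fit as reported, with the GC content and length offset, and with the B cell marker covariate. Filled symbols have an adjusted p under 0.05: Tnip1 is filled in all 3 fits, Zc3h12a in 2 and Cyld in 1, and Tnip3 changes side with the offset.

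In these libraries log2 CPM followed transcript GC content and gene length to a degree that differed from library to library. For Tnip1 and Zc3h12a, whose transcripts have 57.8% and 57.1% GC, the fitted trend differed by -0.24 on the log2 scale, lower in CKO, for each gene. For Cyld, with 43.5% GC, it was higher by 0.35. In CKO D146 the Tnip1 trend was 0.14, within the WT values of 0.084 to 0.18, against -0.30 to -0.15 in the other CKO libraries. The Zc3h12a trend was 0.075 in CKO D146, 0.044 to 0.16 in WT and -0.27 to -0.13 in the other CKO libraries. For Cyld it was 0.16 in CKO D146, above the WT values of -0.33 to 0.077. The part of this trend in the levels of CKO D146 was not tested. With that trend as an offset Tnip1 changed by -0.71 ± 0.11 (SE; edgeR adjusted p = 0.00757) and Zc3h12a by -1.26 ± 0.23 (0.0119). The B cell marker sum was above the WT range in 3 of 4 CKO libraries and within it in CKO D149. With the marker level as a covariate Tnip1 changed by -1.08 ± 0.22 (edgeR adjusted p = 0.0470) and Zc3h12a by -1.58 ± 0.42 (0.0761). The marker level went largely with genotype, so this fit cannot tell the 2 apart. The part of B cells in these changes was not tested.

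Transcript abundance per unit of length, as TPM (counts over the deposited gene length, scaled to a fixed total in each library), set the order of the genes in WT cells. Zfp36 led at 1059 ± 49.0 TPM (SD, n = 4). Tnip3 (215 ± 29.7 TPM), Tnip2 (182 ± 28.1), Tnip1 (169.4 ± 21.1) and Tnfaip3 (133 ± 30.7) followed. With these lengths the WT ranges of neighbours among the 4 overlapped. Within each WT library, though, Tnip3 was above Tnip2 and Tnfaip3 below Tnip1. Tnip2 was below Tnip1 only in WT D150, at 163.4 against 188.8 TPM. With principal transcript lengths Tnip3 had 446 TPM in WT and Tnip2 175.7 TPM, so the gap between them depended on the length used. Zc3h12a stood at 38.1 ± 4.09 TPM, Cyld at 16.0 ± 5.596 and Zfp36l1 at 11.1 ± 1.66. Zfp36l2 (4.91 ± 1.01 TPM) and Zc3h12c (2.70 ± 1.17) were lowest. In CKO Zfp36 still led at 893 ± 185 TPM, and Tnfaip3, at 189 ± 9.10 TPM, stood above Tnip1, at 106 ± 26.7 TPM. Which groups overlapped depended on the scale. Tnfaip3, which overlapped in CPM, did not overlap in TPM, with 91.5 to 163.7 TPM in WT and 180.4 to 202 TPM in CKO. Tnip1, Tnip2 and Zfp36, which were separate in CPM, overlapped in TPM: CKO D146 had 141.5 TPM of Tnip1 against 139.5 in WT D142, and 1128 TPM of Zfp36, above every WT library. Zc3h12a and Cyld were separate on both scales. A20 transcripts were below ABIN-1 transcripts in each WT library and above them in each CKO library on this scale. The WT order of these 2 genes depended on the length used: with principal transcript lengths Tnfaip3 had 155 TPM and Tnip1 144 TPM in WT, and 218 and 88.8 TPM in CKO.

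**Figure D3:**
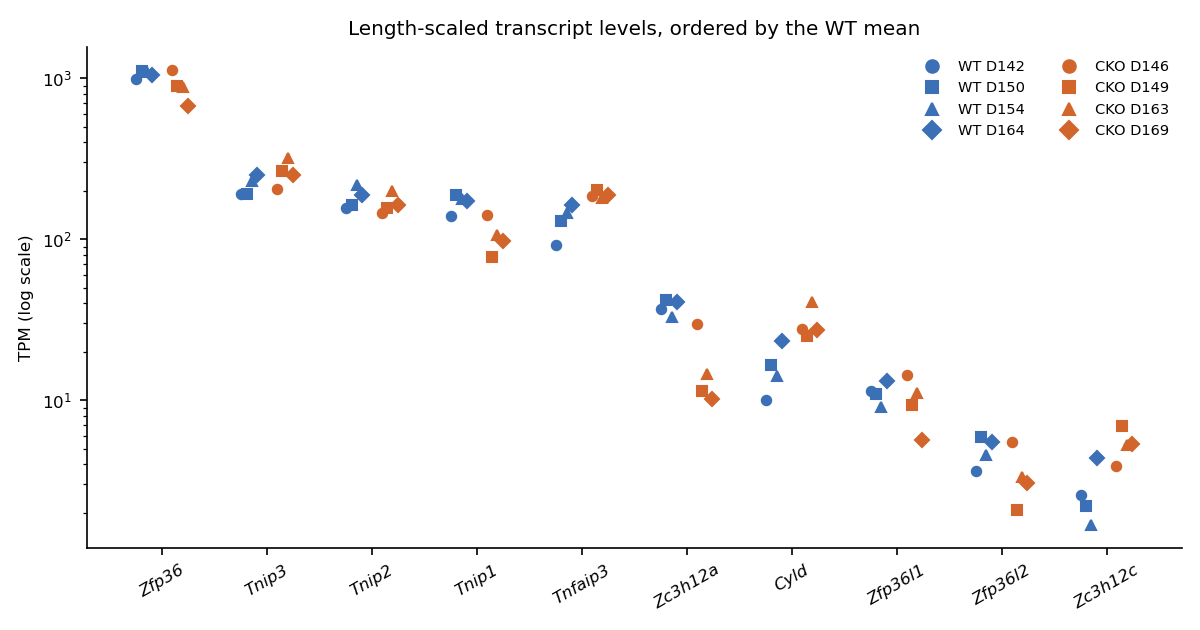
TPM on a log scale (y axis) for the 10 genes ordered by their WT mean (x axis), with WT libraries in blue and CKO libraries in orange, 1 shape per library. Zfp36 lies at 675 to 1128 TPM over all libraries, the 3 ABIN genes and Tnfaip3 lie between 77.6 and 319 TPM, and Zc3h12a, Cyld, Zfp36l1, Zfp36l2 and Zc3h12c lie at 41.8 TPM or below.

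Whether related genes moved apart was asked with ratios inside each library, which do not depend on library scaling beyond the prior count. Exact two-sided permutation tests over the 4 and 4 libraries (70 arrangements, smallest possible p = 0.0286) were adjusted over the 6 pairs compared. The log2 ratio of Tnfaip3 to Tnip1 CPM averaged 0.65 ± 0.25 over WT and 1.90 ± 0.41 over CKO libraries (SD, n = 4). All CKO libraries lay above all WT libraries, a 2.37-fold higher ratio of the 2 transcripts (exact permutation p = 0.0286, adjusted p = 0.0857). Protein was not measured. The log2 ratio of Zc3h12a to Zc3h12c was 2.64 ± 0.49 in WT and 0.26 ± 0.98 in CKO. These groups did not overlap either, and the difference of -2.38 had the same exact permutation p = 0.0286 and adjusted p = 0.0857. Neither passed after adjustment, and both exact p-values were the smallest this design can give. With the GC content and length trend removed the differences were 0.81 and -1.92.

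The other pairs overlapped between genotypes. The log2 ratio of Tnip1 to Tnip2 averaged 0.30 ± 0.22 over WT and -0.28 ± 0.44 over CKO libraries (SD, n = 4), where CKO D146 at 0.35 was within the WT range (exact permutation p = 0.114, adjusted 0.171). Tnfaip3 to Cyld gave 2.28 ± 0.25 and 1.87 ± 0.37 (exact permutation p = 0.114, adjusted 0.171). Within the tristetraprolin family, Zfp36 to Zfp36l1 gave 6.79 ± 0.25 and 6.72 ± 0.28 (exact permutation p = 0.686, adjusted 0.686). Zfp36 to Zfp36l2 gave 7.74 ± 0.26 and 8.01 ± 0.47 (exact permutation p = 0.429, adjusted 0.514). The genotype changes of the 3 family members did not differ beyond the spread of the libraries, which does not show that they change alike.

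**Figure D4:**
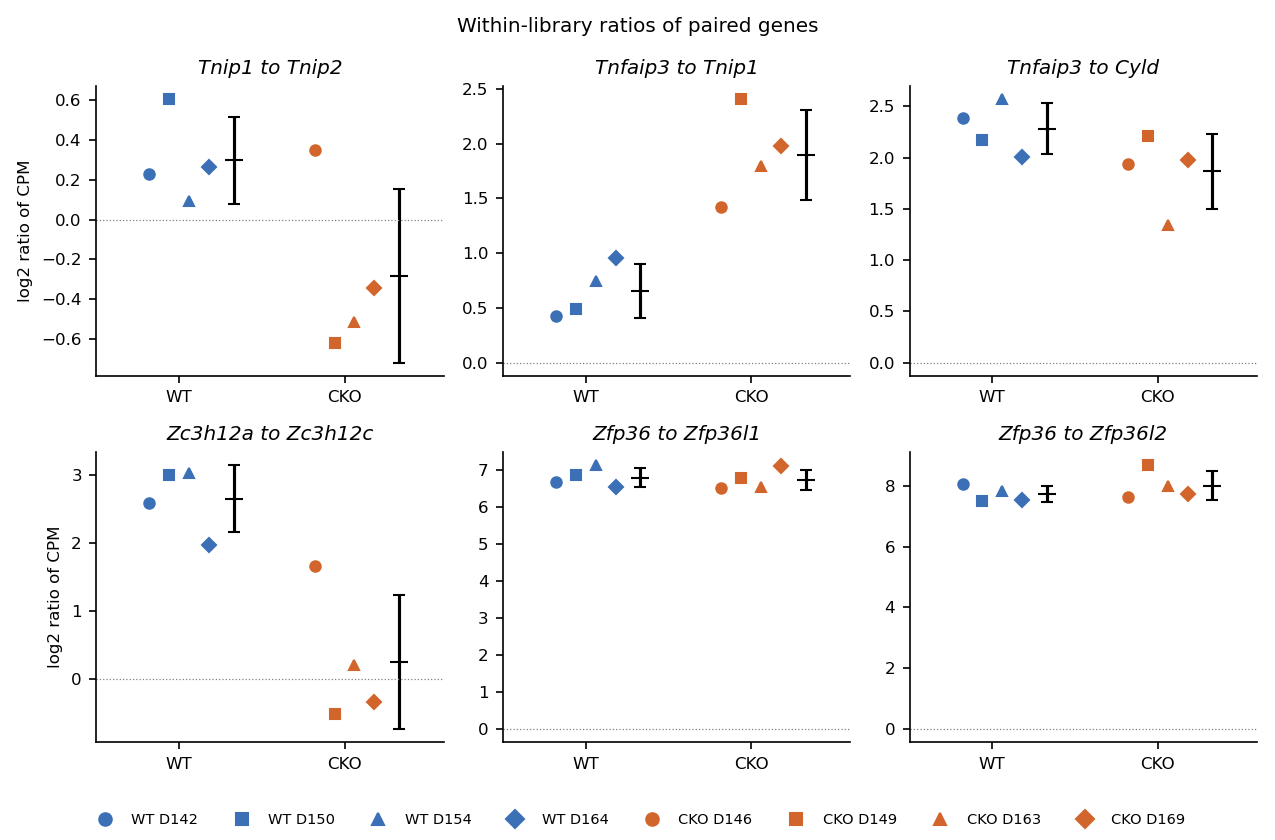
Log2 ratio of the CPM of 2 genes within each library (y axis) by genotype (x axis), with the mean ± SD of 4 libraries. The groups are separate for Tnfaip3 to Tnip1, where CKO is higher, and Zc3h12a to Zc3h12c, where CKO is lower, and overlap in the other 4 panels.

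The proteins that work with A20 were described from a list of 22 genes of the A20 complex, the linear ubiquitin ligase and its targets, of which 21 were in the table and tested. In these 1 rose, 0 fell and 20 did not pass, 4.76% called against 8.87% of all genes, with a median log2 fold change of -0.03 beside 0.03 for all genes. The gene that rose was Itch, an E3 ligase that A20 works with to end signalling. It stood at 18.5, 26.9, 24.5 and 38.4 CPM in WT and 49.5, 54.7, 53.9 and 43.1 CPM in CKO, with no overlap, and a log2 fold change of 0.89 ± 0.20 (SE; edgeR adjusted p = 0.0250). With total-count scaling (11.9% of all genes called) 3 rose and 0 fell. With the GC content and length trend removed (9.21%) 1 rose and 2 fell. The count was 0 without CKO D163, WT D150 or WT D154, 4 without WT D164, and 2 without CKO D146 or CKO D149, where all genes called numbered 70, 82, 138, 1468, 1310 and 1327 in that order. With the B cell marker covariate, which called 1.71% of all genes, it was 0.

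The machinery to which tristetraprolin hands its targets, 24 genes of deadenylation and decapping, moved both ways. All were tested, 3 rose, 2 fell and 19 did not pass, 20.8% called against 8.87% of all genes, and the median was 0.17. This list was chosen with earlier results of these data known, so the share is descriptive only. Cnot1, the scaffold of the CCR4-NOT complex to which tristetraprolin binds, rose from 33.3 ± 13.3 to 68.5 ± 7.17 CPM (SD, n = 4; edgeR adjusted p = 0.0249), with no overlap. The deadenylase gene Cnot6 rose from 47.8 ± 13.8 to 82.6 ± 10.2 CPM (edgeR adjusted p = 0.0282), and the decapping cofactor gene Dcp1a from 39.3 ± 8.67 to 58.7 ± 3.17 CPM (0.0379). Tob1, an adaptor between deadenylase and poly(A)-binding protein, fell from 71.2 ± 13.05 to 37.4 ± 6.69 CPM, with an edgeR adjusted p = 0.0154. The CCR4-NOT subunit gene Cnot3 fell from 57.3 ± 9.86 to 26.9 ± 13.4 CPM (edgeR adjusted p = 0.0390). The Cnot3 groups overlapped through CKO D146, at 46.1 CPM, and WT D142, at 42.8 CPM. Exons of Cnot1 overlap 4930513N10Rik and those of Cnot3 overlap Leng1, both on the opposite strand. The median was -0.01 with the GC content and length trend removed (9.21% of all genes called), where 4 rose and 4 fell. With the B cell marker covariate, which called 1.71% of all genes, 0 of 24 passed. The count was also 0 without CKO D163, WT D150 or WT D154. It was 1 without WT D142 and 3 without CKO D169, where 347 and 457 genes were called in all. Without CKO D163, WT D150 or WT D154 the test called only 70, 82 and 138 genes in all.

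Among 20 other regulators of cytokine mRNA, 19 were tested, 0 rose, 1 fell and 18 did not pass, 5.26% called against 8.87% of all genes, with a median of -0.16. The gene that fell was Mapkapk2, which encodes MK2, the kinase that phosphorylates tristetraprolin and restrains it. It stood at 398, 438, 477 and 479 CPM in WT D142, D150, D154 and D164, and at 353, 164.3, 175 and 107 CPM in CKO D146, D149, D163 and D169. Every CKO library was below every WT library, with CKO D146 the nearest. The log2 fold change was -1.16 ± 0.29 (SE; edgeR adjusted p = 0.0323). The count was 0 with the B cell marker covariate (1.71% of all genes called) and without a low-count filter (5.39%). It was 6, all lower, with the GC content and length trend removed (9.21%, with 448 genes higher and 630 lower). It was 4 without CKO D146, where 1310 genes were called in all, and 0 without any 1 of WT D142, WT D150, WT D154, CKO D149, CKO D163 or CKO D169, where 70 to 1327 were called.

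Transcripts known as targets of Regnase-1 or tristetraprolin were taken as a list of 24, chosen with earlier results of these data known. Of these 2 rose, 4 fell and 18 did not pass, with a median log2 fold change of -0.03. The share called was 25.0% against 8.87% of all genes, and is descriptive only because of how the list was chosen. The rises were in Ptgs2, which encodes the prostaglandin synthase COX-2, and Tfrc, the transferrin receptor gene whose mRNA Regnase-1 cleaves. Ptgs2 stood at 56.7, 86.9, 73.7 and 113 CPM in the WT libraries and 160.4, 217, 185 and 195 CPM in CKO (log2 fold change 1.20 ± 0.19, SE; edgeR adjusted p = 0.0116). Tfrc stood at 5.51, 8.56, 11.5 and 9.93 CPM in WT and 23.6, 13.3, 34.98 and 33.7 CPM in CKO (1.57 ± 0.30, edgeR adjusted p = 0.0179). Neither gene overlapped between genotypes, and CKO D149 was the lowest CKO library for Tfrc.

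The targets that fell were Il1b, which encodes the cytokine interleukin-1β, the stress-response gene Ier3, the chemokine gene Cxcl3 and the siderophore-binding lipocalin gene Lcn2, with log2 fold changes of -0.79 ± 0.14, -0.83 ± 0.20, -1.58 ± 0.29 and -2.26 ± 0.41 (SE). Their edgeR adjusted p-values were 0.0126, 0.0294, 0.0163 and 0.0156. Exons of Il1b overlap Il1bos on the opposite strand. Cxcl3 and Lcn2 were scarce, at 4.16 ± 0.62 and 1.41 ± 0.29 CPM in WT (SD, n = 4). In CKO they stood at 1.39 ± 0.55 and 0.29 ± 0.16 CPM. Lcn2 was thus near the floor in CKO, and the size of its change is less certain. Tnf, Il6 and Il12b, which encode the cytokines TNF, IL-6 and the p40 chain of IL-12, did not pass. Tnf stood at 33.0 to 50.0 CPM in WT and 21.6 to 58.4 CPM in CKO (edgeR adjusted p = 0.764), Il6 at 596 to 726 and 416 to 683 CPM (0.172), and Il12b at 2280 to 3528 and 2003 to 8612 CPM (0.221), with the top value in CKO D149. Leaving out a library moved the count of targets called from 1, without WT D150, to 8, without CKO D169, and it was 3 without WT D154 and 2 without CKO D163. All genes called numbered 82, 457, 138 and 70 in these fits. With the B cell marker covariate, which called 1.71% of all genes, 2 targets were higher and 1 lower.

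**Figure D5:**
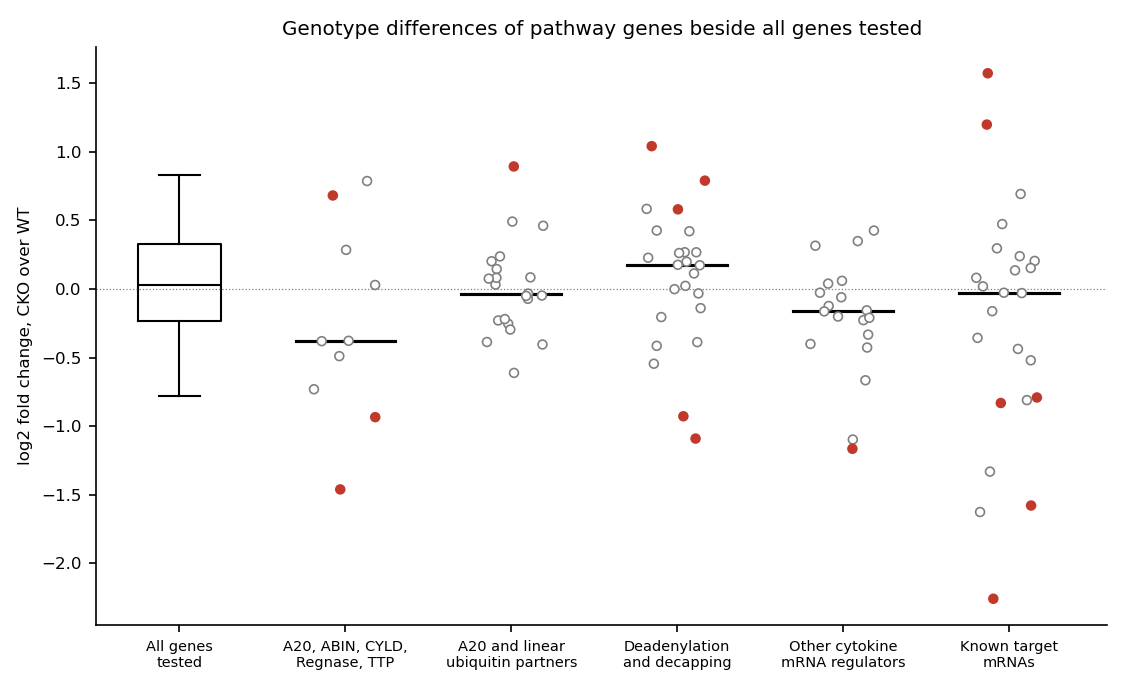
Log2 fold change of CKO over WT (y axis) for all 11702 genes tested (box: quartiles and median; whiskers: 5th to 95th percentile), the 10 genes described here and the 4 lists around them (x axis). Each point is a gene, red where the adjusted p is under 0.05, and the black line is the median, which is -0.38 for the 10 genes and between -0.16 and 0.17 for the lists.

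The AU-rich nonamer shown above for the tristetraprolin genes did not go with a single direction in the target list. Of 24 targets 10 held it, and of these 1 rose, Ptgs2, and 1 fell, Cxcl3. Of the 14 without it 1 rose and 3 fell. Across all tested genes, 837 held at least 1 nonamer, of which 50 rose and 24 fell, 8.84% called. Of the 10289 genes without one 441 rose and 501 fell, 9.16% called. The median log2 fold change was 0.11 for genes with a nonamer, against 0.03 for genes without it. Genes with a nonamer had a median 3' untranslated region of 2229 bases and a median transcript GC content of 47.0%, against 945 bases and 49.7%. With the GC content and length trend removed the medians were -0.00012 and 0.02, and 31 genes with a nonamer rose and 53 fell, against 405 and 565 of those without.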

How the data were processed

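PolyA RNA of 8 sorted cDC samples was amplified with a low-input SMART-Seq kit and sequenced, per the labels' protocols. HISAT2 2.2.1, fastp 0.23.2 and the build mm10 are listed in the submitters' processing notes. Which program counted reads, with what annotation and strand, is not given in the sources used here. Unnormalised integer counts for each gene and its length were deposited, per the file headers. Every sample column was used, and groups came from the genotype labels. The libraries share no replicate numbers.

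The genes described and all lists were chosen with earlier results of these data known. All 10 genes are described; of each list the genes past the threshold are named, and Tnf, Il6, Il12b, Ptgs2 and Tfrc in any case. Genes were tested with edgeR 4.0.16 (R 4.3.3; TMM scaling, filterByExpr on the groups, robust quasi-likelihood F test, Benjamini-Hochberg over 11702 genes, threshold 0.05); it was tested on simulated data. The SE is the log2 fold change over the square root of F. Log2 CPM used a prior count of 2. The GC content and length offset fitted each library's deviation of log2 CPM with natural splines (5 degrees of freedom) over genes at 1 CPM or more. GC content was that of the longest GENCODE M21 transcript, and length was the deposited gene length. GENCODE M21 held 31011 of 31053 gene IDs. Other alternatives were 3 scalings, 2 filters, DESeq2 1.42.0, limma-voom (limma 3.58.1), the mean log2 CPM of 8 B cell markers as a covariate, and leaving out each library. Promoters are from RefSeq (GRCm38.p6), and protein sequences were not used here. A sequence element of 1 gene is not reported here. Totals of 25304765 to 40950088 counts give abundant genes small counting error, so the spread between libraries sets the precision.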

Additional observations from a re-analysis of the deposited data

Results flagged for a closer look

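Among 32 groups of 4 libraries examined (10 genes and 6 ratios in each genotype), 2 held a library that stood apart by Dixon's criterion at the 95% level, which chance alone gives in about 1 of 20 groups. Zc3h12a in CKO D146 was 26.8 CPM, against 9.49 to 12.0 CPM in the other CKO libraries. Cyld in CKO D163 was 147 CPM, against 109 to 113 CPM in the other CKO libraries.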

How the results depend on the processing

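Tnip1 kept its call in 15 of 17 alternative fits, Zc3h12a in 14 and Cyld in 9, all with the same sign; Tnfaip3, Tnip2, Tnip3 and Zfp36l1 were called in 0. Tnip3 turned to -0.33 with the GC content and length offset, and lay between -0.041 and 0.13 with a library left out. The ratio of Zfp36 to Zfp36l1 turned to 0.044 with the trend removed, and lay between -0.19 and 0.039 with a library left out. The cause of these shifts was not tested. With total-count scaling 1080 genes were higher and 311 lower, against 503 and 535. The median log2 fold change was then 0.19 over all genes, -0.22 over the 10 genes, 0.13 over A20 partners, 0.34 over deadenylation and decapping, -0.0073 over other regulators and 0.13 over targets.

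All genes called numbered 2012 in DESeq2, 200 with the B cell covariate and 70 to 1468 with a library left out, against 1038. For the other fits the share of all genes called is given above with the 10 genes. Of the 10 genes, 6 were called in DESeq2, 1 with the covariate and 0 to 5 with a library left out, against 3. Of the A20 partners, against 1, the counts were 3 with total-count scaling, 2 at a mean of at least 5 CPM, 3 in DESeq2, 2 in limma-voom, 3 with the offset, 0 with the covariate and 0 to 4 with a library left out. For deadenylation and decapping, against 5, they were 8 in DESeq2, 8 with the offset, 0 with the covariate and 0 to 6. For other mRNA regulators, against 1, they were 3 with RLE scaling, 0 without a filter, 2 at a mean of at least 5 CPM, 5 in DESeq2, 2 in limma-voom, 6 with the offset, 0 with the covariate and 0 to 4. For targets, against 6, they were 3 with the covariate and 1 to 8. No pair ratio passed under any alternative, but with a smallest exact p of 0.0286 over 6 pairs this design could hardly give a pass, so that says nothing of stability. No paired analysis was possible because the labels give the genotypes no shared replicate numbers.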
